A study of Mus musculus with 6 samples.

Results

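Malat1, Neat1, Rn7s1, Rn7s2 and CT010467.1 are non-coding RNAs, 5 of the 55401 genes in a table of counts from 6 mouse RNA-seq libraries. They were chosen by measured level, under the name of abundant non-coding RNAs, so their levels are given as a description. They stand for RNAs of the nucleus and of the signal recognition particle, and for a gene annotated as ribosomal RNA. The choice was made with earlier results of these data known, the comparison of the sets included, so the counts of RNAs that differ between the sets are not independent of it. The libraries are labelled as basophils, rare granulocytes armed with IgE, sorted from wild-type mice by a gate for live CD45+Lin-CD49b+FcεRIα/IgE+ cells. They form set B (3 libraries) and set A (3 libraries), as named in the labels. Dermatitis was induced with MC903, an analogue of vitamin D, given to both ears at 2 nmol in 10 µL of ethanol each day between day 0 and day 6, and controls had ethanol alone. The labels do not say which set had MC903, nor the strain, age and sex. Every difference is therefore set B relative to set A. The labels and protocol name blood, while the design text names ear skin; the protocol also speaks of pooled RNA. Whether a set's 3 libraries are from different mice is not stated, so a p-value speaks for the spread among these libraries alone, and that spread may be technical.

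Malat1 is a long RNA kept in nuclear speckles, bodies rich in splicing factors. Neat1, its neighbour on the same chromosome, is the scaffold of paraspeckles and is made as a short and a long form. Rn7s1 and Rn7s2 encode 7SL RNA, the RNA core of the signal recognition particle, which docks ribosomes making secreted proteins at the endoplasmic reticulum. RNA polymerase III makes 7SL. CT010467.1 is annotated as a ribosomal RNA gene by GENCODE. At its place RefSeq, on the same mouse assembly, lists Rn18s-rs5, a copy related to 18S ribosomal RNA. Smart-seq2, the method named in the protocol (the sample descriptions name 10x Genomics), starts copying at runs of A. Most messenger RNAs end in one that is added as a tail. Mature Malat1, the long form of Neat1, 7SL and ribosomal RNA have no such added tail.

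The libraries held 46137963 to 63956911 counts, far above the yield of reads that the protocol states, so a count is not taken as 1 read. Intervals on single libraries cover counting error only. Levels are given as CPM, the count per gene scaled to a common library total. Markers of the sorted cell type were nearly absent from set A. The summed level of 7 basophil markers was 1075 to 2467 CPM in set B and 1.63 to 55.96 CPM in set A, and Fcer1a, the IgE-binding chain of the gate, had 2681 to 10736 counts in set B and 4, 0 and 0 counts in set A. Of the basophil markers, 5 of 7 were higher in every B library than in any A library, as were 5 of 10 neutrophil markers (summed 12431 to 23050.2 CPM in set B, 2400.2 to 9548 CPM in set A). Of all genes tested 10.2% were so. Lower in every B library, as were 3.91% of all genes tested, were 3 of 9 T cell markers (282 to 543 CPM in set B, 809 to 1189.9 CPM in set A), 2 of 8 of monocytes and macrophages (27220.3 to 35858 CPM in set B, 36971 to 47583 CPM in set A), 2 of 8 of dendritic cells (1431 to 1827 CPM in set B, 2312 to 3245 CPM in set A), 2 of 6 of platelets (565 to 858 CPM in set B, 1054 to 1469 CPM in set A) and 2 of 7 of erythroid cells (109 to 179 CPM in set B, 269.5 to 629.9 CPM in set A). Ly6g, Cd4, Kit, Alas2, Slc4a1, Prg2 and Epx were at 0 in all 6 libraries. No marker of B cells or NK cells was apart between the sets in either direction. The marker differences lie along the same comparison of sets as those of the 5 RNAs, and their part in those was not tested. In such sorted pools a change in the mix of cells and a change in RNA per cell cannot be told apart.

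Together the 5 RNAs took 1.68%, 1.75% and 1.87% of all counts in set B replicates 1, 2 and 3, against 2.80%, 2.91% and 2.66% in set A replicates 1, 2 and 3. The sets did not overlap, and the mean was 1.77% ± 0.0947 in set B and 2.79% ± 0.126 in set A (SD, n = 3 each). The difference of -1.02 percentage points had an exact permutation p of 0.1, 2-sided, the smallest that 3 libraries against 3 allow. With mitochondrially encoded genes left out of the total it was -1.07 percentage points. Most of this share was Malat1 and CT010467.1, at 1.68% ± 0.0774 in set B and 2.57% ± 0.128 in set A. Neat1 was not abundant: it ranked between 958 and 5510 among the genes of a library, while Malat1 ranked between 3 and 6.

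**Figure D1:**
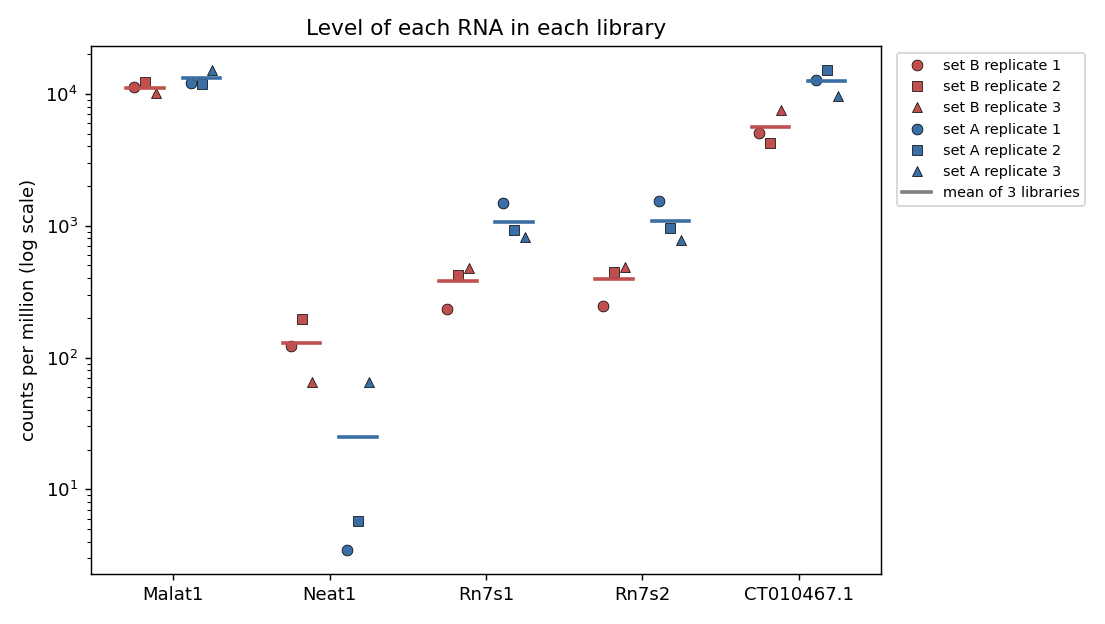
Level of each RNA in each library (CPM, log axis), set B in red left of set A in blue, with replicate numbers as symbols and the mean of 3 libraries as a line. Malat1 lies between 10093 and 15209.6 CPM in all 6 libraries, both 7SL genes and CT010467.1 are lower in every B library, and Neat1 is low in set A replicates 1 and 2 only.

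By edgeR's quasi-likelihood test across all 9196 genes that passed a filter on low counts, none of the 5 RNAs passed a Benjamini-Hochberg adjusted p of 0.05. That test called 2 genes higher in set B (0.0217% of those tested) and 0 lower (0%). At an unadjusted p under 0.05 it counted 4 of the 5 as lower in set B, Malat1, Rn7s1, Rn7s2 and CT010467.1, where 1.32% of all genes tested and 4.28% of the 1798 genes with a mean of at least 100 CPM did so. It counted 0 of the 5 as higher, against 5.05% of all genes. By level alone 3 of the 5, both 7SL genes and CT010467.1, were lower in every B library than in any A library, as were 3.91% of all genes tested and 6.28% of those with a mean of at least 100 CPM. Neat1 was higher in every B library, as were 10.2% of all genes tested. The 7SL genes share 1 sequence and are counted as 2 in these tallies, though they are not separate measurements. The RNAs were also picked with results of these data known.

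**Figure D2:**
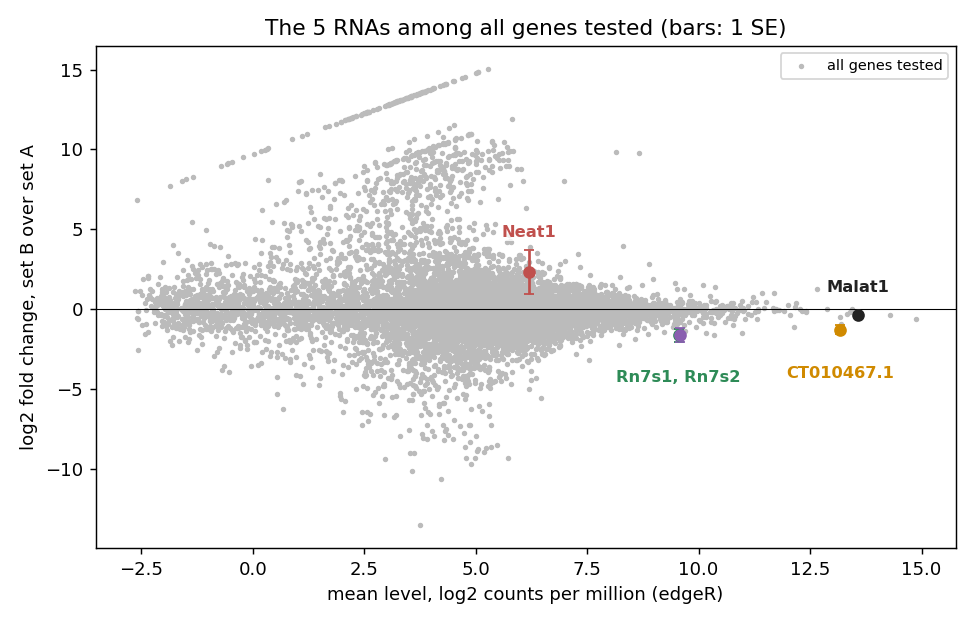
Fitted log2 fold change (set B over set A) against mean level (log2 CPM) for the 9196 genes tested in grey, with the 5 RNAs in colour and bars of 1 SE. The 7SL genes (-1.63 and -1.60) and CT010467.1 (-1.26) lie below 0 by several SE, Malat1 (-0.33) lies nearer to it, and Neat1 (2.33) lies above it with the longest bar of the 5.

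Malat1 (ENSMUSG00000092341) was the steadiest of the 5. It was at 11209 CPM, 12259 CPM and 10093 CPM in set B replicates 1, 2 and 3, and at 12206 CPM, 11983 CPM and 15209.6 CPM in set A replicates 1, 2 and 3. The sets overlapped, since set B replicate 2 lay above set A replicates 1 and 2, and the highest library was 1.51 times the lowest. The mean was 11187 ± 1083 CPM in set B and 13133 ± 1802 CPM in set A (SD, n = 3 each), with a log2 fold change of -0.33 (SE 0.11, adjusted p = 0.511 by edgeR). Scaling by library size alone gave -0.23 at an unadjusted p of 0.12. Limma-voom, with quality weights for samples, put Malat1 past the threshold at -0.43 (adjusted p = 0.0310), as it did 0.0761% of all genes tested as lower and 2.12% as higher. In that fit the median log2 fold change of all genes was 0.87. DESeq2 did not, at the same size of -0.43 (adjusted p = 0.116). Malat1 and Neat1 together held 72.4% to 83.6% of all counts of genes annotated as lincRNA in each library, and 561 of the 5614 lincRNA genes in the table had any count.

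The annotated Malat1 transcript holds a single run of 12 A, which lies near its 3′ end. The stretch is shown because primers that bind runs of A can start there, the run being in capitals (bases 6634 to 6725 of 6983, from the GENCODE M21 transcripts, mouse assembly GRCm38):
Malat1: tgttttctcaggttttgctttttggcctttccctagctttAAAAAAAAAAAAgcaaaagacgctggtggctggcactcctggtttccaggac
Of the 2550 annotated transcripts of 6000 to 8000 bases, 19.5% hold a run of 12 or more A on the transcript's strand. The long Neat1 transcript (20771 bases) holds no run of 8 or more A, and neither do 45.9% of the 146 transcripts of at least 15000 bases. The longest run is 7 A in long Neat1, 5 A in the short form (3004 bases) and 4 A in 7SL and in CT010467.1. For CT010467.1 this is the annotated strand, which is not taken as the strand of ribosomal RNA. The opposite strand was not scanned. No library was tested for where its reads began.

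Neat1 (ENSMUSG00000092274) varied most between libraries. It had 6097, 11629 and 4202 counts in set B replicates 1, 2 and 3, against 192, 305 and 3020 counts in set A replicates 1, 2 and 3. In CPM that is 122.6, 196.7 and 65.7 in set B and 3.48, 5.77 and 65.5 in set A. Set A replicates 1 and 2 were low, while set A replicate 3 lay level with set B replicate 3, so the sets were apart by less than 1 CPM. The mean was 128 ± 65.7 CPM in set B and 24.9 ± 35.1 CPM in set A (SD, n = 3 each), with a log2 fold change of 2.33 (SE 1.37, adjusted p = 1.00 by edgeR). Without set A replicate 3 it was 4.64 (adjusted p = 0.440 by edgeR), and with replicate number as a block 3.63 (adjusted p = 0.998 by edgeR). Counts are per gene, so the short and the long form cannot be told apart here.

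Set against Malat1 in the same library, a ratio that the library total does not touch, Neat1 had 10.9, 16.04 and 6.51 counts per 1000 Malat1 counts in set B replicates 1, 2 and 3. In set A replicates 1, 2 and 3 it had 0.285, 0.481 and 4.30. The sets did not overlap, and the log2 ratio was 3.64 higher in set B (exact permutation p = 0.1, 2-sided). That difference was 2.86 without set A replicate 1 and 4.82 without set A replicate 3.

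Rn7s1 (ENSMUSG00000099021) and Rn7s2 (ENSMUSG00000099250) are annotated with the same 300 bases, with 0 differences, so each of the 151 windows of 150 bases, the stated read length, is in both. No other transcript of the annotation holds the whole sequence. Another annotated transcript shares 24 windows of 150 bases with Rn7s1, so some reads may match a further gene.

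Rn7s1 was at 234 CPM, 425 CPM and 478 CPM in set B replicates 1, 2 and 3, against 1481 CPM, 920.3 CPM and 823 CPM in set A replicates 1, 2 and 3. Rn7s2 was at 246 CPM, 444 CPM and 489 CPM in set B replicates 1, 2 and 3, and at 1549 CPM, 958 CPM and 774 CPM in set A replicates 1, 2 and 3. Set B replicate 1 was the lowest library and set A replicate 1 the highest, 6.33 times apart for Rn7s1, and the sets did not overlap. Rn7s1 averaged 379 ± 128 CPM in set B and 1075 ± 355 CPM in set A, and Rn7s2 averaged 393 ± 129.5 CPM in set B and 1094 ± 405 CPM in set A (SD, n = 3 each). The log2 fold change was -1.63 for Rn7s1 (SE 0.40) and -1.60 for Rn7s2 (SE 0.42), each with an adjusted p of 0.508 by edgeR. Summed to 1 feature, a choice made after seeing the data, they gave -1.62 (SE 0.40, adjusted p = 0.509 by edgeR). DESeq2, which called 1.25% of the genes it gave an adjusted p as lower and 5.91% as higher, placed both past the threshold (adjusted p = 2.85e-05 for Rn7s1 and 6.80e-05 for Rn7s2), and limma-voom neither (adjusted p = 0.185 and 0.249).

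The split of the 7SL counts between the copies was close to even. Rn7s2 held 51.2%, 51.1% and 50.6% of the pair in set B replicates 1, 2 and 3, and 51.1%, 51.0% and 48.5% in set A replicates 1, 2 and 3. Set A replicate 3 was the one library where Rn7s1 had more, with an exact binomial 95% interval of 48.1% to 48.8%. In the other 5 libraries the interval lay above an even split. These intervals treat counts as independent reads. Since a count is not taken as 1 read, they may be too narrow, and no departure from an even split is concluded. The log2 ratio of Rn7s2 to Rn7s1 was 0.0448 higher in set B (exact permutation p = 0.6, 2-sided), and -0.00483 without set A replicate 3. How the counting program placed reads that match both is not stated. The 2 genes held 82.9% to 98.8% of all counts of genes annotated as misc_RNA.

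**Figure D3:**
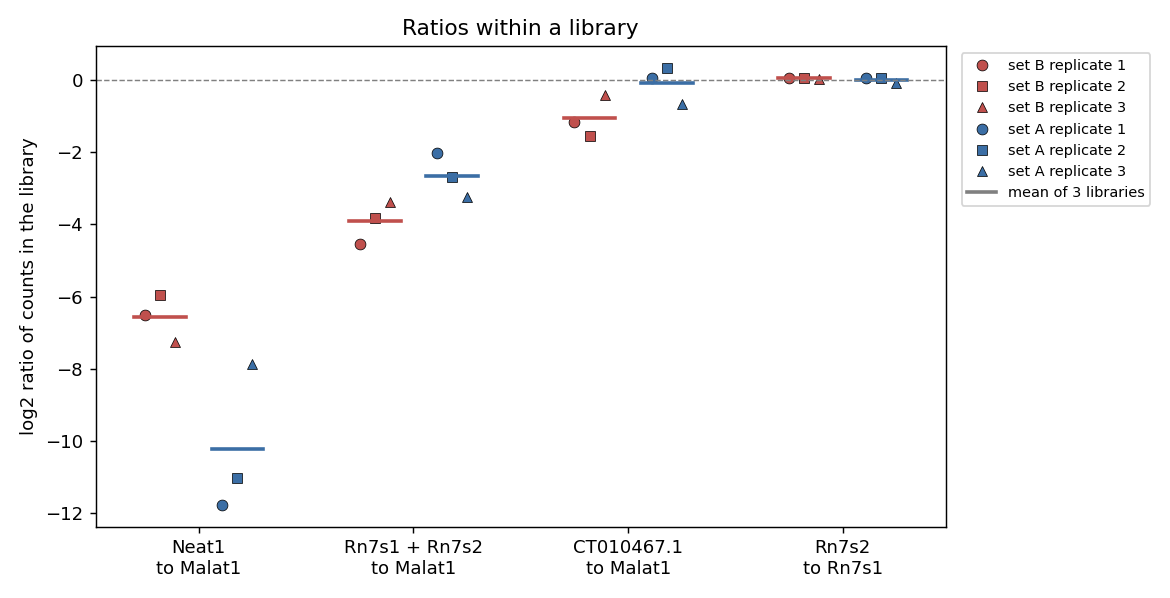
Log2 ratios of counts within each library, set B in red left of set A in blue, with the mean of 3 libraries as a line and an even ratio dashed. The sets do not overlap for Neat1 to Malat1 and for the 7SL pair to Malat1, they overlap for CT010467.1 to Malat1, and Rn7s2 to Rn7s1 stays near 0.

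CT010467.1 (ENSMUSG00000106106) was at 5022 CPM, 4209.6 CPM and 7582 CPM in set B replicates 1, 2 and 3, against 12807 CPM, 15196 CPM and 9692 CPM in set A replicates 1, 2 and 3. Every B library was below every A library, and set B replicate 3 and set A replicate 3 lay closest. The mean was 5604 ± 1760 CPM in set B and 12565 ± 2760 CPM in set A (SD, n = 3 each), with a log2 fold change of -1.26 (SE 0.30, adjusted p = 0.508 by edgeR). DESeq2, which called 1.25% of the genes it gave an adjusted p as lower, placed it past the threshold (adjusted p = 4.21e-06). Limma-voom did not (log2 fold change -1.34, SE 18.3, adjusted p = 0.987), and with so large an SE that fit decides nothing for this gene. CT010467.1 ranked between 9 and 17 among the genes of a B library and between 3 and 9 in an A library. It held at least 99.9% of the counts of the 354 genes annotated as rRNA, a class of nuclear genes of which 6 had any count.

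The strand of CT010467.1 is opposite to that of Gm42418, a gene annotated at the same place. A stretch of 60 bases is shown from each, each written 5′ to 3′ on its own strand, to show that they are reverse complements (from the GENCODE M21 transcripts, GRCm38):
CT010467.1: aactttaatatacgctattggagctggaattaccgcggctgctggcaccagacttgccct
Gm42418: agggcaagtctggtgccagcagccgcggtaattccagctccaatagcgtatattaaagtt
The longest run of such complementary bases is 1244 of the 1831 bases of the Gm42418 transcript. The annotated strand of CT010467.1 is therefore not taken as the strand of ribosomal RNA. Whether the counting used strand is not stated. Without it reads of CT010467.1 and of genes annotated on the opposite strand cannot be told apart. Gm42418 had no single match among the counted gene names and was not analysed here.

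Relative to Malat1 in the same library, 7SL (both copies) had 42.8, 70.9 and 95.8 counts per 1000 Malat1 counts in set B replicates 1, 2 and 3, against 248, 157 and 105 in set A replicates 1, 2 and 3. The sets did not overlap, with a log2 difference of -1.27 (exact permutation p = 0.1, 2-sided), although set B replicate 3 and set A replicate 3 were near each other. CT010467.1 had 0.448, 0.343 and 0.751 counts per Malat1 count in set B replicates 1, 2 and 3, and 1.05, 1.27 and 0.637 in set A replicates 1, 2 and 3. Here the sets overlapped, and the log2 difference was -0.96 (exact permutation p = 0.2, 2-sided). The log2 ratio of 7SL to CT010467.1 differed by -0.31, with the sets overlapping (exact permutation p = 0.5, 2-sided). Counting Rn7s2 to Rn7s1, 5 ratios were compared, each by an exact test that cannot go below 0.1, so adjusted values could not pass either.

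Levels of different RNAs were compared per kb of the annotated transcript, taking counts to grow with its length. That was not tested for these RNAs. Their runs of A differ, so capture may differ between them, and the order below is one of scaled counts. 7SL, both copies over 300 bases, was at 2573 ± 859 CPM per kb in set B and 7228 ± 2531 CPM per kb in set A. CT010467.1, over 1849 bases, was at 3031 ± 952 CPM per kb in set B and 6796 ± 1493 CPM per kb in set A. Malat1 was at 1602 ± 155 CPM per kb in set B and 1881 ± 258 CPM per kb in set A (SD, n = 3 each). By this scale 7SL was 0.996, 1.65 and 2.23 times Malat1 in set B replicates 1, 2 and 3, and 5.78, 3.65 and 2.44 times Malat1 in set A replicates 1, 2 and 3. CT010467.1 was above Malat1 in all 6 libraries, at 1.30 to 2.84 times in set B and 2.41 to 4.79 times in set A. 7SL and CT010467.1 overlapped in both sets and were not ordered. Over its long form Neat1 was at 6.18 ± 3.16 CPM per kb in set B and 1.20 ± 1.69 CPM per kb in set A, and it was below the others in every library also over its short form (highest 65.5 CPM per kb).

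**Figure D4:**
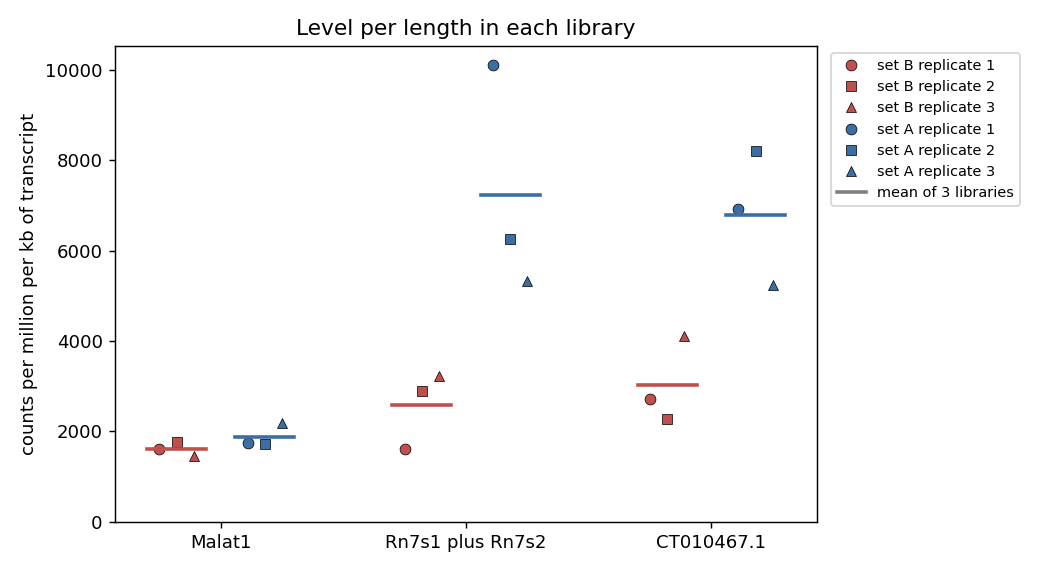
Level per length, in CPM per kb of the annotated transcript, of Malat1, the 7SL pair and CT010467.1 in each library, set B in red left of set A in blue, with the mean of 3 libraries as a line. Malat1 stays between 1445 and 2178 CPM per kb, while 7SL and CT010467.1 reach up to 10101 and 8218 CPM per kb in set A.

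Likeness of pattern was measured as the SD over the 6 libraries of the log2 ratio of counts to the RNA in question, among 1794 other genes with a mean of at least 100 CPM. Nearest to Malat1 were Llph (SD 0.101), Cox6b1, a subunit of cytochrome c oxidase (0.146), and Ywhae, a 14-3-3 protein (0.161), where the median gene had 0.733. Nearest to Neat1 were Gm26740 (0.806), Hdc, the enzyme that makes histamine (0.840), and Gpr65, a receptor for acid pH (1.13), with a median of 2.52. Hdc was at 685 CPM, 467 CPM and 359 CPM in set B replicates 1, 2 and 3, and at 38.0 CPM, 62.2 CPM and 267 CPM in set A replicates 1, 2 and 3, so it too was highest within set A in replicate 3. Nearest to Rn7s1, beside its copy, were Zcrb1 (0.254), Mxi1 (0.262) and Mif4gd (0.341), with a median of 1.20. Nearest to CT010467.1 were Ctla2a (0.166), mt-Rnr1, the small ribosomal RNA of mitochondria (0.277), and Elof1 (0.294), with a median of 1.04.

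Genes that act with these RNAs were counted by the same edgeR test over lists of partners. None of the 141 partner genes that could be tested in 9 lists passed in either direction, and DESeq2 called 3 higher and 3 lower, where it called 5.91% of all genes higher and 1.25% lower. Of the nuclear speckle proteins that share their body with Malat1, 32 of 34 were tested, with a median log2 fold change of -0.35 beside -0.06 for all genes tested. At an unadjusted p under 0.05, where 1.32% of all genes tested were lower and 5.05% higher, edgeR counted 1 lower, the splicing factor Srsf5 (422 ± 152 CPM in set B, 744 ± 219 CPM in set A, log2 fold change -0.91, SE 0.35, adjusted p = 0.684). Tra2a, another splicing factor, came next (10.2 ± 1.07 CPM in set B, 60.8 ± 45.9 CPM in set A). Of the paraspeckle proteins that Neat1 gathers, 29 of 33 were tested with a median of -0.39, and none was under an unadjusted p of 0.05 by edgeR. Those with the smallest p were Hnrnpk (372 ± 127 CPM in set B, 551 ± 99.2 CPM in set A) and Hnrnpul1, which rested on 139.6 CPM in set A replicate 1 with at most 1.66 CPM elsewhere. Of 13 genes that process the 3′ ends of Malat1 and Neat1, such as subunits of RNase P, 5 were tested with a median of 0.85, led by Rpp21 (167 ± 56.4 CPM in set B, 122 ± 34.7 CPM in set A) and Pop5 (49.0 ± 46.1 CPM in set B, 15.96 ± 27.6 CPM in set A).

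The protein partners of 7SL, subunits of the signal recognition particle, its receptor and the translocon, had 19 of 20 members tested, with a median log2 fold change of 0.13. None was under an unadjusted p of 0.05 by edgeR, and 12 fitted values lay above 0 and 7 below. By level 5 were higher in every B library and 0 lower, where 10.2% and 3.91% of all genes were. Srp54b, a copy of the GTPase subunit, was at 107 ± 41.0 CPM in set B and 5.24 ± 8.67 CPM in set A, and Ssr2, a translocon-associated protein, at 216 ± 69.9 CPM in set B and 76.6 ± 54.3 CPM in set A. Of the 5, Srp54a, Srp54b and Srp54c are near copies, so their counts are uncertain and they are not separate measurements. Srp9 and Srp14, which bind 7SL directly, had log2 fold changes of -0.04 (SE 0.33) and 0.05 (SE 0.37, adjusted p = 1.00 by edgeR for both). Of the genes of RNA polymerase III, which makes 7SL, 15 of 24 were tested with a median of -0.63, and edgeR counted 2 higher and 1 lower at an unadjusted p under 0.05, beside 5.05% and 1.32% of all genes tested. Gtf3c3, of its factor TFIIIC, was at 3.38, 6.63 and 20.06 CPM in set B replicates 1, 2 and 3, against a count of 0 in each A library. Brf1, of its factor TFIIIB, was at 99.3, 20.09 and 0.610 CPM in set B replicates 1, 2 and 3 and at most 0.173 CPM in set A. The lower one was Polr3c, a subunit of the polymerase, at 35.8 ± 16.8 CPM in set B and 141 ± 40.3 CPM in set A (SD, n = 3 each), with a log2 fold change of -2.08 (SE 0.81, adjusted p = 0.684 by edgeR) and every B library below every A library.

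A list of 10 genes that overlap ribosomal RNA or encode that of mitochondria was read beside CT010467.1. Only 3 of them had a single match among the counted gene names, and these 3 were tested. Their median log2 fold change was -1.47. By edgeR 2 were lower at an unadjusted p under 0.05, beside 1.32% of all genes tested and 4.28% of those with a mean of at least 100 CPM. These were the mitochondrial ribosomal RNAs, both lower in every B library. The large one, mt-Rnr2, was at 6670 ± 443 CPM in set B and 11946 ± 2065 CPM in set A (log2 fold change -0.94, SE 0.16), and mt-Rnr1 at 1096 ± 127 CPM in set B and 2806 ± 1033 CPM in set A (-1.47, SE 0.33, n = 3, adjusted p = 0.508 for both by edgeR). All mitochondrially encoded genes took 1.85% ± 0.115 of counts in set B and 2.81% ± 0.93 in set A (SD, n = 3 each), and the part of RNA quality in these differences was not tested. Lars2, the third tested gene of that list, was at an adjusted p of 1.00 by edgeR. Of the genes of RNA polymerase I and ribosomal RNA processing 18 of 24 were tested with a median of 0.34, and 1 was higher at an unadjusted p under 0.05 by edgeR (5.05% of all genes tested were), Nop58, a protein of box C/D particles (16.06 ± 10.5 CPM in set B, 0.123 ± 0.131 CPM in set A). Taf1b, of the polymerase I factor SL1, came next (23.5 ± 29.7 CPM in set B, 114 ± 23.4 CPM in set A).

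Of 13 other structured small RNAs 2 were tested, with a median log2 fold change of 0.84 and none under an unadjusted p of 0.05 by edgeR. Rn7sk, a polymerase III RNA that restrains transcription elongation, was at 64.9, 26.8 and 29.3 CPM in set B replicates 1, 2 and 3 and at 20.3, 20.6 and 18.99 CPM in set A replicates 1, 2 and 3 (log2 fold change 0.91, SE 1.45, adjusted p = 1.00 by edgeR). It was higher in every B library, the opposite order to 7SL, and the difference between these RNAs was not tested. Rpph1, the RNA of RNase P, was at 10.3 ± 10.7 CPM in set B and 6.01 ± 5.53 CPM in set A, and Terc and Rny3 had 0 counts in all 6 libraries. Of 36 other long non-coding RNAs 18 were tested with a median log2 fold change of 0.24, none under an unadjusted p of 0.05 by edgeR, and 9 were at 0 in every library, Xist and H19 among them. Those with the smallest p were Oip5os1, listed under the name 1700020I14Rik (115 ± 56.6 CPM in set B, 170 ± 67.3 CPM in set A), and Snhg20, a host gene of a small nucleolar RNA (37.0 ± 25.2 CPM in set B, 8.01 ± 13.7 CPM in set A). The sign of each list's median was the same under the 3 scalings tried.

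**Figure D5:**
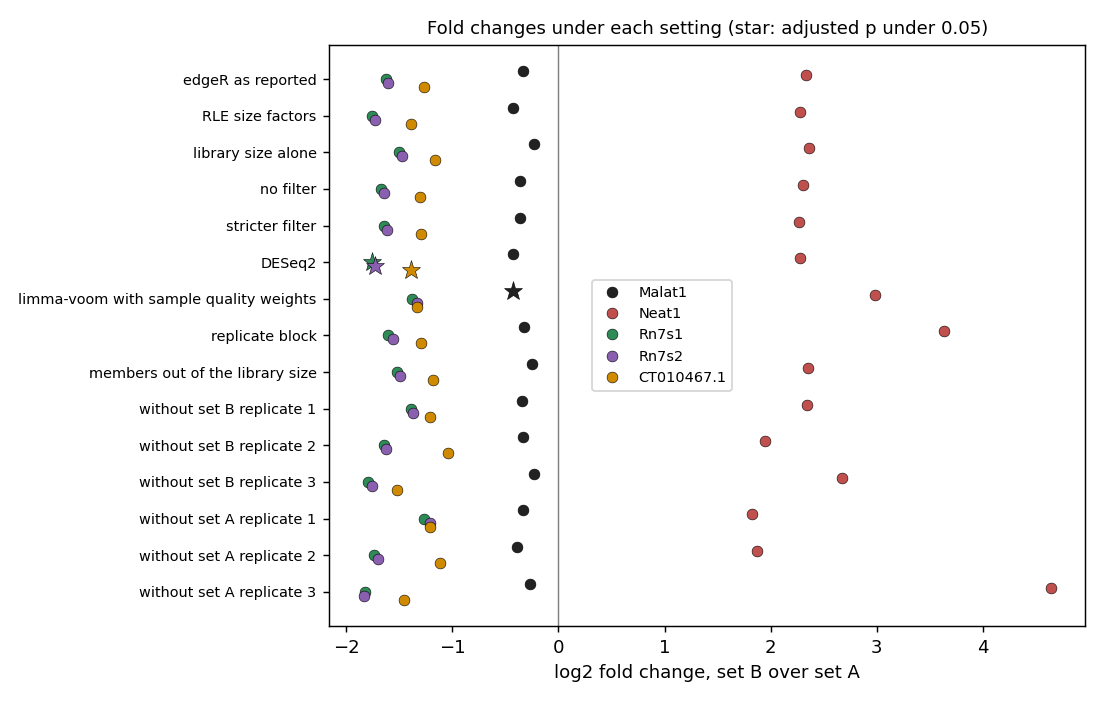
Log2 fold change (set B over set A) of the 5 RNAs under each way of processing, 1 line per setting, with a star where the adjusted p is under 0.05. The 4 RNAs other than Neat1 are below 0 and Neat1 above it under every setting plotted, stars appear only with DESeq2 (7SL and CT010467.1) and limma-voom (Malat1), and Neat1 moves farthest, to 4.64 without set A replicate 3.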

How the data were processed

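The authors deposited raw counts per Ensembl gene, not normalized, with 1 column per library. The submitters' processing notes name cutadapt 1.9, HISAT2 2.2.1 and DESeq2 but not what each did. Counter, build, annotation and strandedness are not stated, and coordinates are left out for that reason. A count of 4 occurs 5211 times in the table, against 819 times for 3 and 660 for 5, so what 1 count stands for is unknown. Symbols matched 55141 of 55401 identifiers. Sequences, lengths and gene classes are from GENCODE M21 (GRCm38).

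CPM is a count over the library total (46137963 to 63956911), and a floor of 3 counts is 0.0469 to 0.0650 CPM. EdgeR 4.0.16 (R 4.3.3; filterByExpr on the sets, TMM, glmQLFit with robust=TRUE, glmQLFTest, Benjamini-Hochberg over 9196 genes, threshold 0.05) compared set B with set A over 6 libraries. All 5 RNAs passed the filter. SE is the absolute log2 fold change over the root of F. Shares and ratios were compared by exact permutation tests, and intervals are exact binomial at 95%. Alternatives were RLE scaling, scaling by library size only, omitting the filter, tightening it (at least 10 counts in all libraries of 1 set, mean at least 10 CPM), DESeq2 1.42.0 and limma-voom (limma 3.58.1) on the filtered genes, a replicate block, a threshold of 0.01, the 5 RNAs left out of the library size, and each library left out in turn.

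The RNAs and lists were chosen with earlier results of these data known. The 9 partner lists held 207 entries, 11 of them with no single match. Named beyond the 5 RNAs are, by rule, the 2 genes with the smallest p in each list and the 3 nearest in pattern to Malat1, Neat1, Rn7s1 and CT010467.1. Srp9, Srp14, Polr3c, Srp54a, Srp54c, Lars2, Terc, Rny3, Xist and H19 were named after their values were seen. Some marker genes and sequences are not reported here.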

Additional observations from a re-analysis of the deposited data

How the results depend on the processing

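All 5 fold changes kept their direction under every alternative run. The median log2 fold change of all genes was -0.06 as reported, -0.16 with RLE scaling, 0.87 by limma-voom, 0.48 in the fit with the replicate block and 0.28 without the filter. Past the threshold by DESeq2 were Rn7s1 (-1.76), Rn7s2 (-1.73) and CT010467.1 (-1.39), and by limma-voom Malat1 (-0.43). Limma-voom gave CT010467.1 -1.34 with an SE of 18.3. The cause was not tested. Leaving out each library gave -0.39 to -0.23 for Malat1, 1.83 to 4.64 for Neat1, -1.83 to -1.27 for Rn7s1, -1.84 to -1.21 for Rn7s2 and -1.52 to -1.04 for CT010467.1. The difference in Rn7s2 to Rn7s1 ranged from -0.00483 to 0.0713 and turned without set A replicate 3. Over all genes edgeR called 2 genes, DESeq2 595 (491 higher and 104 lower in set B), limma-voom 202 (195 higher and 7 lower), and a threshold of 0.01 left 0. Leaving out a library gave 0 to 1 calls, with 602 to 1030 genes at an unadjusted p under 0.05. Of the partner genes DESeq2 called 6 (Gtf3c3, Brf1 and Nop58 higher, mt-Rnr1, mt-Rnr2 and Srsf5 lower in set B) and limma-voom 1 (Gtf3c3).

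The replicate numbers are not stated to pair libraries, and the deviations of same-numbered libraries correlated at 0.0125, 0.00267 and -0.0289 over 1798 genes. With a replicate block edgeR called 0 genes (345 at an unadjusted p under 0.05), and the fold changes were -0.33 for Malat1, 3.63 for Neat1, -1.60 for Rn7s1, -1.56 for Rn7s2 and -1.29 for CT010467.1. With 3 libraries a set, exact tests could not pass a threshold of 0.05.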

Other observations

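Among genes annotated as lincRNA, those with the most counts after Malat1 were Gm36161 (646 ± 311 CPM in set B, 351 ± 96.6 CPM in set A), AW112010 (233 ± 99.3 CPM in set B, 390.5 ± 69.8 CPM in set A) and 1810058I24Rik (236 ± 98 CPM in set B, 319 ± 129 CPM in set A; SD, n = 3 each). They were named after their values were seen and not tested apart from the other genes. AW112010 was at 125, 253 and 321 CPM in set B replicates 1, 2 and 3 and at 469, 335 and 367 CPM in set A replicates 1, 2 and 3, so the sets did not overlap. Lower in every B library were 3.91% of all genes tested and 6.28% of those with a mean of at least 100 CPM. Protein-coding genes took 93.6% ± 0.37 of counts in set B and 91.8% ± 0.356 in set A (SD, n = 3 each).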
